A study of Homo sapiens with 4 samples.

Results

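The translation initiation factors described here are the human genes whose symbol begins with EIF and a digit, with pseudogene names dropped. The name rule found 56 genes among the 61498 genes in the annotation of the study, and all 56 are protein coding. They were measured in poly(A) RNA of K562, a human erythroleukaemia cell line that makes embryonic and fetal globins and can be driven further along the erythroid path. The untreated group (n = 2 libraries) is K562 grown without an added agent, and the hemin group (n = 2 libraries) is the same line kept in 50 µM hemin, an iron-containing porphyrin, for 108 h. Both groups come from a single leukaemic line, and the labels do not say whether the libraries of a group came from separate cultures, so p-values measure only the spread between these samples, which may be technical.

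Initiation is the step at which the small ribosomal subunit is brought to an mRNA and placed on its start codon. eIF2 carries the initiator tRNA, eIF2B recharges eIF2 with GTP, eIF3 holds the small subunit and the mRNA together, and the eIF4 factors bind the cap and unwind the leader. In erythroid cells the pathway is tied to heme: the kinase HRI, encoded by EIF2AK1, is held inactive by heme and phosphorylates eIF2α when heme is scarce, which lowers globin synthesis. The eIF4E-binding proteins compete with the eIF4G scaffold for eIF4E and are themselves controlled by the kinase complex mTORC1.

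The 4 libraries held between 7455447 and 8241534 expected counts. Differences are given as log2 fold changes, hemin over untreated, from edgeR's quasi-likelihood test on counts, and a gene is said to have risen or fallen where its p-value, adjusted by the Benjamini-Hochberg method over the 14458 genes tested, was below 0.05. Levels within a gene are given as CPM, counts scaled to a common library size by the TMM factors, and levels compared between genes as TPM, which also divides by transcript length. All 10 K562 and erythroid markers examined were detected. Among them HBE1, HBZ and TFRC rose and ALAS2 fell. The 9 markers of other blood cells averaged between 0 and 0.857 TPM, with CD3E, MS4A1, MPO and ELANE at 0 in every library. Of the 6 megakaryocyte markers, GP9, PF4 and PPBP were at 0 and the others low: ITGA2B had 15 and 27 counts untreated and 10 and 9 after hemin (log2 fold change -1.15, edgeR adjusted p = 0.123), GP1BA 39 and 26 untreated and 38 and 20 after hemin, and ITGB3 9 and 10 untreated and 1 and 3.1 after hemin. Summed, these 6 markers came to 4.69 and 7.3 TPM untreated and 4.21 and 3.87 TPM after hemin. The 6 epithelial and stromal markers summed to 1091 and 1136 TPM untreated and 996 and 1015 TPM after hemin, mostly VIM (845 TPM on average, -0.05), and PECAM1 and COL1A1 averaged below 1 TPM. Among them KRT8 fell (-0.42), while COL1A2 (-0.53, edgeR adjusted p = 0.0511) and EPCAM (0.08, with overlapping groups) did not pass the threshold. The part of these markers in the results was not tested. In bulk RNA, fewer cells of a type and less RNA per cell cannot be told apart.

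Of the 56 initiation factors, 51 passed the filter on low counts. Of these, 11 rose after hemin, which is 21.6% against 7.00% of all genes tested, and 1 fell, which is 1.96% against 7.14% of all genes tested. The share called also depends on counts, since small changes pass more readily in genes with many reads. The members were not compared with genes of similar counts. The risers were EIF4A3, EIF3A, EIF4G1, EIF3J, EIF1AX, EIF5B, EIF5A, EIF4A1, EIF3B, EIF3G and EIF4G2, and the gene that fell was EIF2AK1. The changes were small: the risers went up by 11.0% to 32.7%, and EIF2AK1 fell by 14.6%. The other 39 factors did not pass the threshold. Without untreated replicate 1, the count of risers was 6 and that of factors that fell 0. The median log2 fold change over the 51 was 0.071 (0.066 without EIF3CL, a gene whose reads cannot be assigned), against -0.00481 over all genes tested, and 36 of 51 values were above 0. With a library left out the median ran from 0.0441 (without untreated replicate 1) to 0.105 (without untreated replicate 2). Both hemin libraries lay above both untreated libraries for 28 factors, which is 54.9% against 28.1% of all genes tested. Both lay below for 3, namely EIF2AK1, EIF3H and EIF4E3, which is 5.88% against 29.3%, and the groups overlapped for 20. The 56 genes together took 1.32% and 1.34% of all counts in the untreated libraries and 1.40% and 1.39% in the hemin libraries. On log2(TPM + 1) and log2(TPM + 0.1), where limma was used, none of the 12 calls was kept and 0 factors passed the threshold, although the median over the 51 was 0.0743 and 0.0746. Only 14 and 33 genes of all tested (higher and lower) passed on the log2(TPM + 1) scale.

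**Figure D1:**
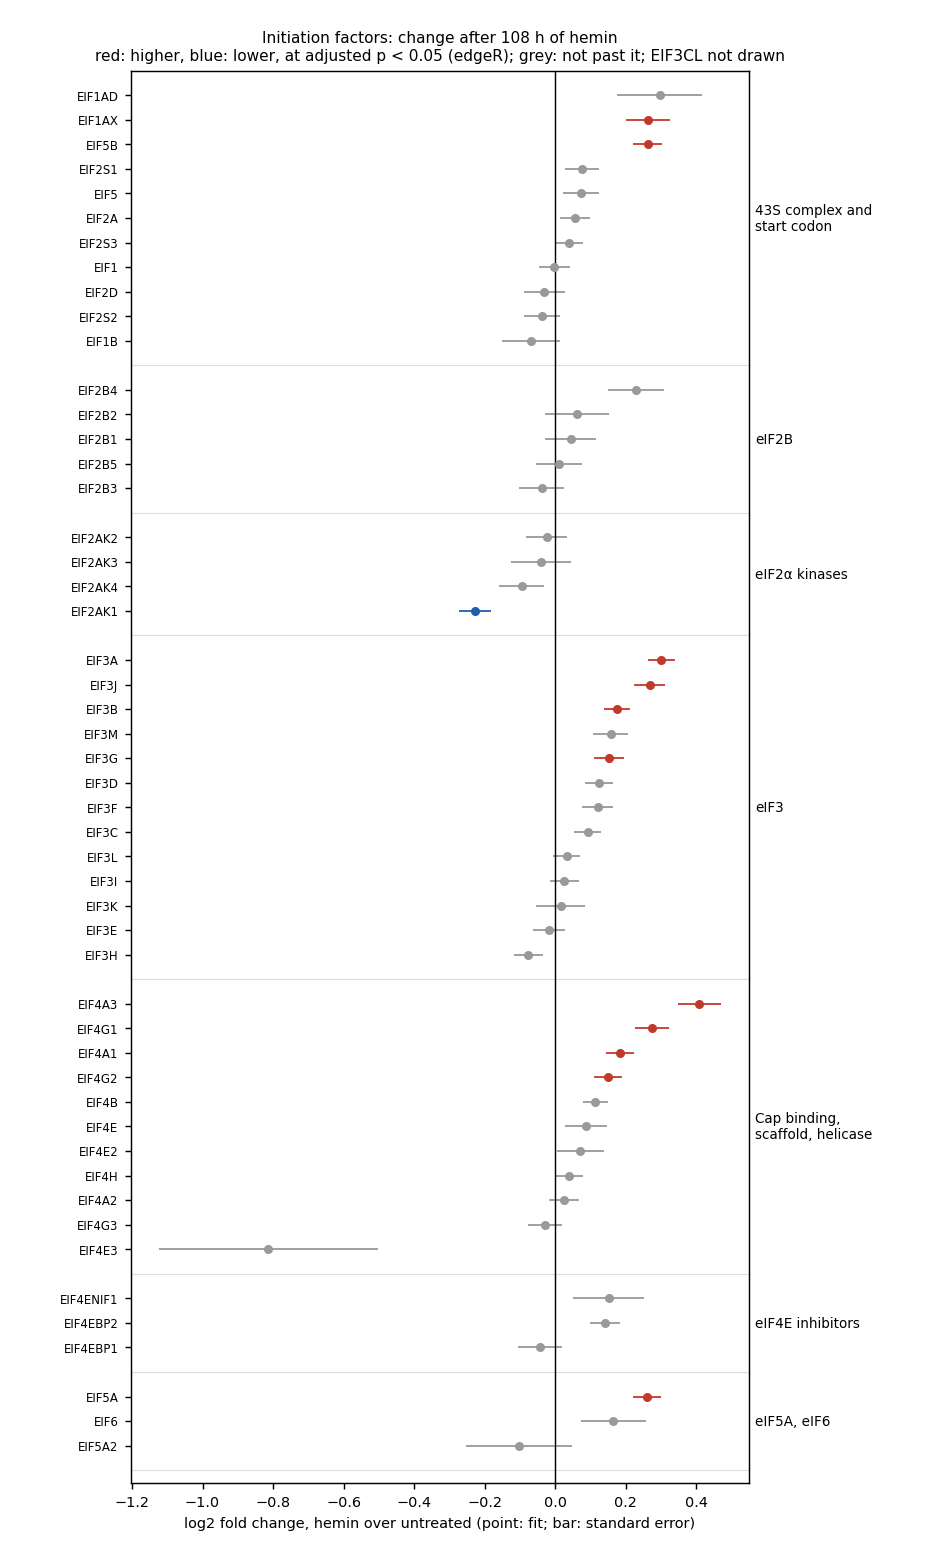
Log2 fold change (x axis, hemin over untreated; point, fitted value; bar, standard error) of 50 tested initiation factors, grouped by role, with EIF3CL left out for its standard error of 1.3. Red points rose and the blue point, EIF2AK1, fell at an adjusted p below 0.05 by edgeR; red points occur in the start-codon, eIF3, cap-complex and eIF5A groups.

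Among the 13 genes of the initiator tRNA, start-codon and subunit-joining steps, 11 were tested, and EIF5B and EIF1AX rose. EIF5B, the GTPase that joins the large subunit, was read at 287 and 284 CPM in the untreated libraries and at 348 and 337 CPM in the hemin libraries. The groups did not overlap, and the log2 fold change was 0.26 (SE 0.041, edgeR adjusted p = 0.00408). On the log2(TPM + 1) scale its difference was 0.133, and the effective length that TPM divides by averaged 4021 bases untreated and 4299 bases after hemin. EIF1AX, which steers the scanning subunit to the start codon, stood at 77.9 and 84.9 CPM untreated and 95.7 and 99.4 CPM after hemin. Its 2 groups were also apart, with a log2 fold change of 0.26 (SE 0.062, edgeR adjusted p = 0.0222), but the call was lost without untreated replicate 1 (edgeR adjusted p = 0.13) or hemin replicate 2 (edgeR adjusted p = 0.0765).

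The 3 subunits of eIF2 itself did not pass the threshold. EIF2S1, which holds the serine that the stress kinases phosphorylate, had a log2 fold change of 0.07, EIF2S2 one of -0.04 and EIF2S3 one of 0.04, each with a standard error between 0.039 and 0.050. Their levels in untreated cells were 188, 118 and 330 TPM, a 2.8-fold range within a complex that holds each subunit once. EIF5, the GTPase activator of eIF2 (0.07), EIF2A (0.06) and EIF2D (-0.03), alternative tRNA-binding factors that are not eIF2 subunits, EIF1 (-0.00) and EIF1B (-0.07), start-codon gatekeepers, and EIF1AD, an eIF1A-like protein (0.30, SE 0.12), did not pass either. EIF1AD had higher CPM in both hemin libraries (30.6 and 25.0) than in the untreated ones (24.0 and 21.1), but its edgeR adjusted p was 0.141.

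The 5 subunits of eIF2B, the exchange factor that stress signalling blocks, ran from a log2 fold change of -0.04 (EIF2B3) to 0.23 (EIF2B4), and none passed the threshold. EIF2B4 was the only subunit whose groups did not overlap, at 51.6 and 46.3 CPM untreated and 55.4 and 59.2 CPM after hemin (SE 0.079, edgeR adjusted p = 0.0854). The eIF2B subunits lay within 38.1 to 61.1 TPM in untreated cells, a 1.6-fold range, and below each eIF2 subunit in every library.

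Of the 4 kinases of eIF2α, EIF2AK1 fell and the others did not pass the threshold. EIF2AK1, the heme-regulated kinase HRI (ENSG00000086232, minus strand of chr7:6022247-6059175 in GRCh38), was read at 272 and 268 CPM in untreated cells and at 223 and 238 CPM after hemin. Both hemin libraries were below both untreated ones, and the log2 fold change was -0.23 (SE 0.046, edgeR adjusted p = 0.0119, DESeq2 adjusted p = 0.0102). The call was lost without untreated replicate 1 (edgeR adjusted p = 0.0621) or hemin replicate 1 (0.0546), while the fitted value stayed between -0.275 and -0.176. In TPM the gene stood at 174 and 159 untreated and at 120 and 129 after hemin, and the difference on the log2(TPM + 1) scale was larger, at -0.417 (limma adjusted p = 0.0864). RSEM gave the gene an effective length of 2268 bases untreated and 2533 bases after hemin, and TPM divides by this length.

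EIF2AK2, the kinase PKR that binds double-stranded RNA, was at 101 and 98.8 CPM untreated and 94.1 and 102 CPM after hemin. EIF2AK3, the endoplasmic reticulum kinase PERK, was at 35.7 and 38.7 CPM untreated and 34.9 and 37.3 CPM after hemin. EIF2AK4, the amino-acid sensor GCN2, was at 97.2 and 88.8 CPM untreated and 84.5 and 89.6 CPM after hemin. The groups of these 3 kinases overlapped, with log2 fold changes of -0.02 (SE 0.058), -0.04 (SE 0.085) and -0.10 (SE 0.064). EIF2AK1 was the most abundant of the kinases, at 167 ± 10.5 TPM in untreated cells and 124 ± 6.34 TPM after hemin (SD, n = 2), whereas the other kinases lay between 16.5 and 26.1 TPM in all libraries.

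eIF3 is the largest initiation factor, and 4 of its 14 genes rose and none fell. EIF3A, the scaffold subunit, was at 658 and 642 CPM in untreated cells and at 802 and 797 CPM after hemin. EIF3J, a loosely bound subunit, was at 178 and 184 CPM untreated and at 215 and 220 CPM after hemin. EIF3B, which carries the core together with EIF3A, was at 452 and 448 CPM untreated and at 511 and 505 CPM after hemin. In each of these the hemin libraries lay above the untreated ones by more than the libraries of a group lay apart. The log2 fold changes were 0.30 for EIF3A (SE 0.038, edgeR adjusted p = 0.00145), 0.27 for EIF3J (SE 0.044, edgeR adjusted p = 0.00492) and 0.17 for EIF3B (SE 0.038, edgeR adjusted p = 0.0171). EIF3G, an RNA-binding subunit, had a log2 fold change of 0.15 (SE 0.042, edgeR adjusted p = 0.0405). EIF3A and EIF3J kept their calls with any single library left out. EIF3B lost its call without untreated replicate 1 (edgeR adjusted p = 0.0625) or untreated replicate 2 (0.0714). EIF3G lost its call without each of the 4 libraries (untreated replicate 1, 0.183; untreated replicate 2, 0.0617; hemin replicate 1, 0.0839; hemin replicate 2, 0.0888) and with library sizes in place of TMM factors (0.0936).

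Among the other eIF3 subunits, EIF3M (0.16), EIF3D (0.12) and EIF3F (0.12) had higher CPM in both hemin libraries and edgeR adjusted p-values of 0.0629, 0.0693 and 0.11. EIF3L (0.03), EIF3I (0.03), EIF3K (0.02) and EIF3E (-0.02) stayed within 0.04 of 0 on the log2 scale. EIF3H had the lowest value of the complex, at -0.08 (SE 0.041, edgeR adjusted p = 0.255), with both hemin libraries (444 and 450 CPM) below the untreated ones (462 and 481 CPM). The 13 subunits without EIF3CL spanned 178 TPM (EIF3J) to 701 TPM (EIF3E) in untreated cells, a 3.93-fold range, and 198 TPM (EIF3F) to 704 TPM (EIF3E) after hemin, a 3.56-fold range. EIF3J and EIF3A, which both rose, had the lowest TPM of the 13 subunits in untreated cells, at 178 and 191, next to 201 for EIF3F.

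Among the 12 genes of the cap-binding, scaffold and helicase group, 11 were tested and 4 rose. EIF4A3 had the largest log2 fold change of all called members. It encodes a DEAD-box helicase that sits in the exon junction complex of spliced mRNA and is not a subunit of the cap-binding complex. Its CPM were 68.1 and 67.7 untreated and 93.4 and 87.0 after hemin, a log2 fold change of 0.41 (SE 0.061, edgeR adjusted p = 0.0036). EIF4G1, the main scaffold between the cap and the ribosome, was at 389 and 357 CPM untreated and at 447 and 456 CPM after hemin. The gap between its groups exceeded the spread within them (log2 fold change 0.27, SE 0.048, edgeR adjusted p = 0.00678). EIF4A1, the helicase of the complex, was at 771 and 803 CPM untreated and at 888 and 900 CPM after hemin (log2 fold change 0.18, SE 0.039, edgeR adjusted p = 0.0155). EIF4A1 lost its call without untreated replicate 1 (edgeR adjusted p = 0.0836), and EIF4A3 and EIF4G1 kept theirs with any single library left out. EIF4G2, a scaffold that lacks the eIF4E site, had a log2 fold change of 0.15 (SE 0.040, edgeR adjusted p = 0.0353). That call was lost without untreated replicate 1 (0.125), untreated replicate 2 (0.102) or hemin replicate 2 (0.146), and with library sizes in place of TMM factors (0.0811), and the difference was 0.07 on the log2(TPM + 1) scale.

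The cap-binding protein gene EIF4E itself was at 75.6 and 80.4 CPM untreated and 81.8 and 83.8 CPM after hemin, and its log2 fold change of 0.09 (SE 0.060, edgeR adjusted p = 0.376) did not pass the threshold. EIF4B and EIF4H, cofactors of the helicase, had log2 fold changes of 0.11 (SE 0.036, edgeR adjusted p = 0.0661) and 0.04, and DESeq2 called EIF4B (adjusted p = 0.0289). EIF4E2, a cap-binding homologue (0.07), EIF4A2, the close relative of EIF4A1 (0.02), and EIF4G3, a relative of EIF4G1 (-0.03), did not pass. EIF4A1 was the most abundant initiation factor, at 993 ± 11.1 TPM untreated and 1120 ± 17.6 TPM after hemin (SD, n = 2). Its TPM were 5.43 and 5.76 times those of EIF4A2 in the untreated libraries and 7.11 and 6.58 times in the hemin libraries. For EIF4G1 over EIF4G3 the same ratio was 3.38 and 3.41 untreated and 4.52 and 4.13 after hemin, and in both pairs the groups did not overlap. These TPM ratios also depend on the effective lengths. The length averaged 1658 bases untreated and 1791 after hemin for EIF4A2, and 4769 and 4965 for EIF4G3. In CPM, EIF4A2 was at 209 and 212 untreated and 217 and 211 after hemin, and EIF4G3 at 149 and 146 untreated and 141 and 148 after hemin.

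EIF4E3, another cap-binding homologue, had the lowest mean TPM of the tested factors over the 4 libraries (1.66, next to 2.64 for EIF3CL), at 2.06 and 2.22 untreated and 1.20 and 1.14 after hemin. It rested on 34.0 and 30.9 expected counts untreated and 19.5 and 16.8 after hemin. Both hemin libraries were lower, but the log2 fold change of -0.81 had a standard error of 0.31 and an edgeR adjusted p of 0.111. The ratio of pooled counts, untreated over hemin, was 1.86 with an exact 95% interval from 1.22 to 2.88, which covers counting error only.

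Of the 3 eIF4E-binding proteins, none changed past the threshold. EIF4EBP1 was at 87.6 and 92.8 CPM untreated and at 91.3 and 83.8 CPM after hemin, and its groups overlapped (log2 fold change -0.04, SE 0.063). EIF4EBP2 was at 205 and 197 CPM untreated and at 223 and 220 CPM after hemin, with a log2 fold change of 0.14 (SE 0.043, edgeR adjusted p = 0.0591). EIF4EBP2 did pass without a count filter (edgeR adjusted p = 0.0378), with the strict count filter (0.0433) and with posterior mean counts (0.0389). By DESeq2 it did not (adjusted p = 0.146). EIF4EBP3 had 5.5 and 1.7 expected counts untreated and 2.6 and 5.2 after hemin, too few for the test. EIF4EBP1 was the most abundant of them, at 158 TPM over all libraries against 39.2 for EIF4EBP2. Its TPM were 1.5 and 1.6 times those of EIF4E in the untreated libraries and 1.5 and 1.28 times in the hemin libraries, so the groups came within rounding of each other. EIF4ENIF1, which carries eIF4E into the nucleus, had a log2 fold change of 0.15 (SE 0.10, edgeR adjusted p = 0.367).

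EIF5A, which carries the modified lysine hypusine and helps the ribosome through difficult peptide bonds, rose. It was read at 453 and 463 CPM in untreated cells and at 555 and 541 CPM after hemin, with groups well apart and a log2 fold change of 0.26 (SE 0.040, edgeR adjusted p = 0.00382). The call held with any single library left out. Its relative EIF5A2 was at 10.9 and 11.6 CPM untreated and at 9.98 and 10.9 CPM after hemin, with a log2 fold change of -0.10 (SE 0.15, edgeR adjusted p = 0.71). On the log2(TPM + 1) scale the EIF5A2 difference was 0.336, in the other direction, and its effective length averaged 2651 bases untreated and 1912 after hemin. EIF6, which keeps the ribosomal subunits apart, had a log2 fold change of 0.17 (SE 0.091, edgeR adjusted p = 0.269).

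**Figure D2:**
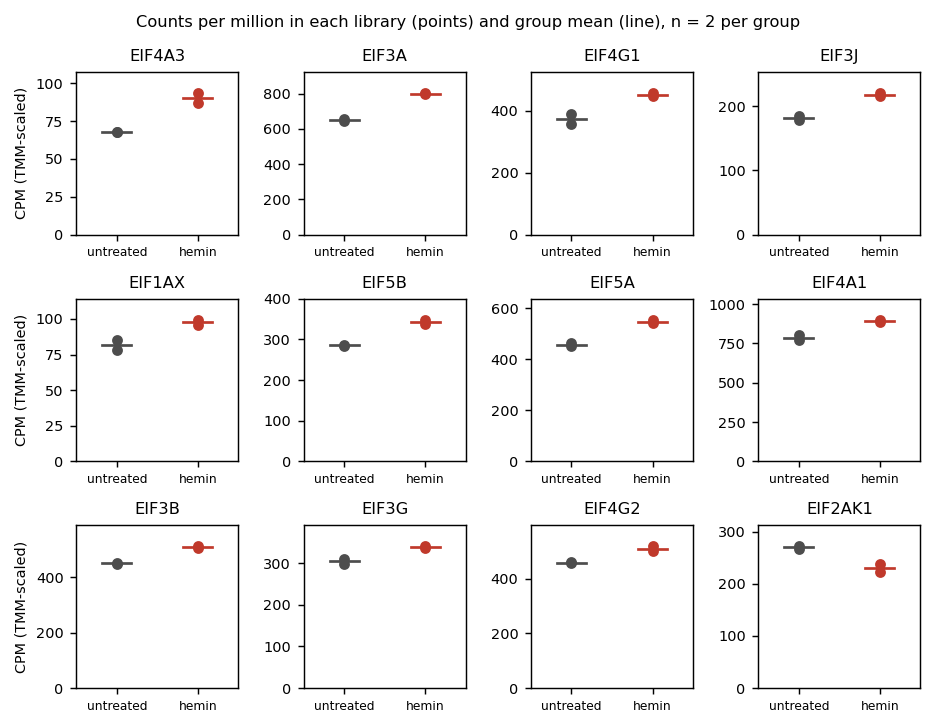
TMM-scaled CPM (y axis, from 0) of the 12 called initiation factors in each library (points) with the group mean (line), 2 untreated and 2 hemin libraries. In every panel the groups are apart: the hemin points are above the untreated points for 11 genes and below them for EIF2AK1 (223 and 238 against 272 and 268).

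**Figure D3:**
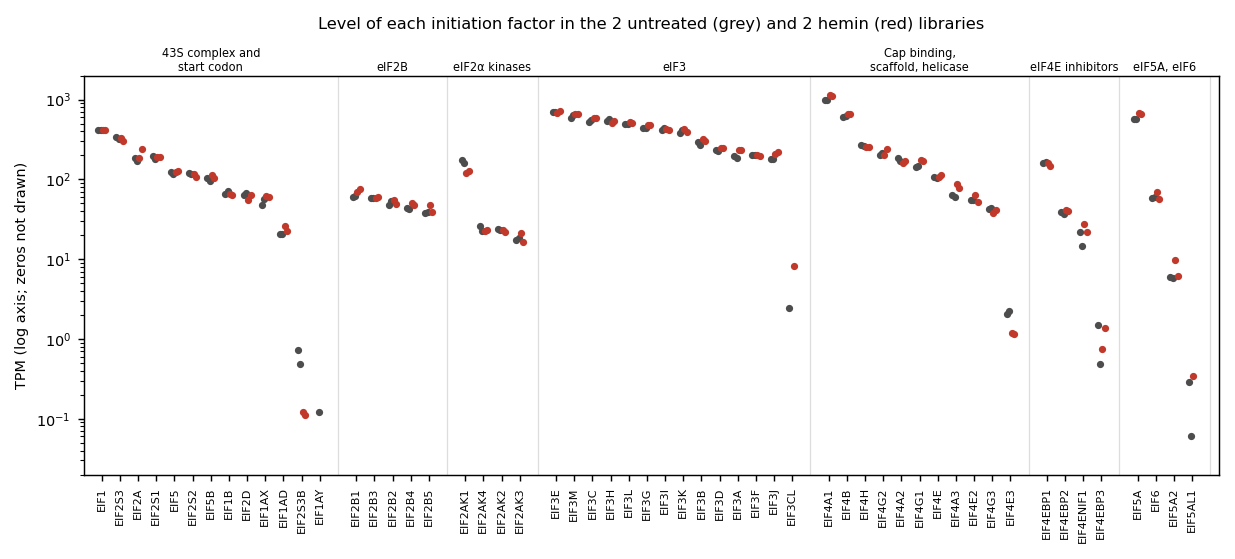
Level of the initiation factors in TPM (y axis, log scale; values of 0 not drawn) in the untreated (grey) and hemin (red) libraries, grouped by role and ordered by level. EIF4A1 is highest at 985 to 1131 TPM, the eIF2B subunits lie close together, and EIF2AK1 stands above the other 3 kinases in every library.

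Several members have near-identical copies, and RSEM divides shared reads between them by estimate. The windows below are 50 bases of coding sequence in GRCh38 (GENCODE 44), as long as the reads. For pairs that differ, a window with at least 1 difference but as few as possible was picked. The windows are examples and do not measure how alike the whole transcripts are. Capitals mark the base at which a pair differs.
EIF3C, plus strand of chr16:28724963-28725012: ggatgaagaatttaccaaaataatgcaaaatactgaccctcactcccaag
EIF3CL, minus strand of chr16:28390291-28390340: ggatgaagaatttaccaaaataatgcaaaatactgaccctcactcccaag
EIF5A, plus strand of chr17:7311380-7311429: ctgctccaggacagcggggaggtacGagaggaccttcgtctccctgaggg
EIF5AL1, plus strand of chr10:79512950-79512999: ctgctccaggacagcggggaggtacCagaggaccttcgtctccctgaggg
EIF2S3, plus strand of chrX:24062425-24062474: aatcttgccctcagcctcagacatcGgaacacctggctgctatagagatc
EIF2S3B, plus strand of chr12:10506390-10506439: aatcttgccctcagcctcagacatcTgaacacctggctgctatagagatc
Counted from 1 at the left end of each window, the differences are G26C for EIF5A against EIF5AL1 and G26T for EIF2S3 against EIF2S3B, and the EIF3C and EIF3CL windows hold none.

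EIF3C and EIF3CL had identical coding sequence over 2739 aligned bases, and 97.11% of the 50-base words in the EIF3CL transcripts also occur in EIF3C. EIF3CL was given 41.2 expected counts in untreated replicate 1, 132 in hemin replicate 1 and 0 in the other two libraries. EIF3C was given 8111 and 7914 counts untreated and 8111 and 9076 counts after hemin. In each group, EIF3CL thus had a count in replicate 1 and none in replicate 2. The posterior SD that RSEM gives, relative to the count, was 396% for EIF3CL and 2.06% for EIF3C, and its posterior mean counts for EIF3CL were 275 and 204 untreated and 324 and 286 after hemin. The fitted log2 fold change of EIF3CL (1.72, SE 1.3, edgeR adjusted p = 0.431) ran from -7.365 without hemin replicate 1 to 9.068 without untreated replicate 1 and was 0.343 with posterior mean counts, and it is not read as a change of the gene. Summed, EIF3C and EIF3CL had a log2 fold change of 0.10 (SE 0.0372, edgeR adjusted p = 0.107), next to 0.09 for EIF3C alone (SE 0.039, edgeR adjusted p = 0.148).

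**Figure D4:**
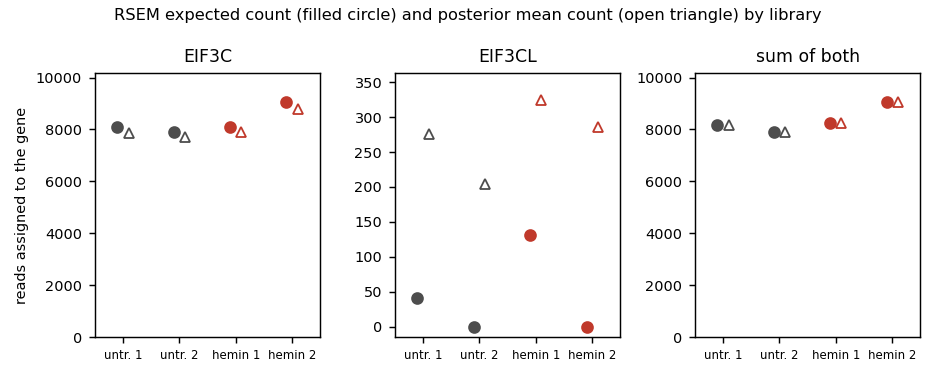
Reads assigned by RSEM to EIF3C, to EIF3CL and to both together (y axes on different scales) in each library, with filled circles for the expected count and open triangles for the posterior mean count. For EIF3CL the 2 estimates are far apart, for example 0 against 286 in hemin replicate 2, while for the sum they nearly coincide.

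EIF5AL1 differs from EIF5A at 5 of 462 coding bases (98.92% identity), and 11.58% of its 50-base words also occur in EIF5A. It had 6.3 and 1.2 counts untreated and 7.1 and 0 counts after hemin, about as many in each group, with 7 pooled counts on either side. Summing it with EIF5A left the log2 fold change at 0.26 (SE 0.0397, edgeR adjusted p = 0.00376). EIF2S3B differs from EIF2S3 at 25 of 1416 coding bases (98.23% identity), and 19.16% of its 50-base words also occur in EIF2S3. EIF2S3B had 10.1 and 6.7 counts untreated and 1.7 and 1.8 after hemin. The ratio of its pooled counts was 5.85 (exact 95% interval 1.69 to 31.2, counting error only) and was 3.18 with posterior mean counts (11.8 and 8.08 untreated, 3.11 and 3.37 after hemin), and the posterior SD of 48.8% of the count is not part of that interval. EIF1AY, the Y-linked copy of EIF1AX with 92.13% identity, and EIF4E1B, a germ-cell cap-binding homologue, completed the 5 members that were not tested, and EIF4E1B had no count in any library, which allows up to 3 counts per library, or 0.364 to 0.402 CPM. The 77 pseudogene names that the rule dropped took 3582 counts in all, equal to 0.849% of the 422170 counts of the members, and 34 of them had no count. The share was uneven: EIF3FP3 took 1382.5 counts, next to 5875 for EIF3F, with which it shares 52.36% of its 50-base words. EIF2S2P4 was given 131.6 and 133.9 counts untreated and 81.2 and 200.5 after hemin. EIF4EP2 was given 0.1 and 50.3 untreated and 20.5 and 37.4 after hemin. Values of EIF3F, EIF2S2 and EIF4E depend on this division. EIF1AXP1 was given 32.8 and 22.8 counts untreated and 44.9 and 62.5 after hemin, and rose (log2 fold change 0.92, edgeR adjusted p = 0.045). It shares 78.5% of its 50-base words with EIF1AX, which rose too, and the posterior SD of EIF1AXP1 came to 23.2%.

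Start regions from RefSeq (GRCh38.p14, 250 bases before to 50 bases after each start) were matched for 47 of the 56 members, with 63 regions in all. A gene was counted once, as holding a start or motif if any of its regions did, so shares depend on how many starts are listed. EIF2AK1, EIF2S2, EIF3A, EIF3CL, EIF3E, EIF3G, EIF3H, EIF3L and EIF4EBP1 were not matched. Many genes of the translation machinery begin their mRNA with a C followed by a run of pyrimidines, the sequence through which mTORC1 controls their translation. A start of C followed by 4 pyrimidines was found in 10 of the 47 members (21.3%) against 5.14% of the 27305 genes with a start region. These were EIF2A, EIF2D, EIF2S3, EIF2S3B, EIF3D, EIF3F, EIF3K, EIF3M, EIF4A2 and EIF4B. Of the 9 that were tested, 0 rose and 0 fell, against 9 risers (21.4%) among the 42 tested members with a start region. Over all genes tested 7.00% rose and 7.14% fell. The count of 0 rests on few genes, and its difference from either share was not tested. EIF2S3B was not tested, and EIF2AK1, the member that fell, had no matched region. Under other settings EIF4B passed by DESeq2 (adjusted p = 0.0289) and without a count filter (edgeR adjusted p = 0.0469). EIF3M and EIF3D passed with the strict count filter (edgeR adjusted p = 0.0375 and 0.0497). EIF3M also passed without a count filter (0.00948) and with posterior mean counts (0.03), and its log2 fold change was 0.226 without untreated replicate 2. The starts of the 4 pyrimidine-start members with the highest log2 fold changes and of 4 members that rose are shown for comparison, 20 bases before and 10 bases from the start, with the first 5 transcribed bases in capitals. Each is the first region listed for its gene.
EIF3D, minus strand of chr22:36529157-36529186: ccgctgcgcgcgcatgtttcCTCTTttcct
EIF3F, plus strand of chr11:7987317-7987346: gtcatttccgcttccgcctcCTTCTttctc
EIF3M, plus strand of chr11:32583811-32583840: gcgtcgcgcggcccagttccCTTTTccggt
EIF4B, plus strand of chr12:53006436-53006465: cgtgattgcctcatccgggtCTTTTgcgtt
EIF3J, plus strand of chr15:44537127-44537156: tgactcacctccgccgtgctAACTCctcgc
EIF4A1, plus strand of chr17:7572805-7572834: tcgataggcgggcactccgcCCTAGtttct
EIF4A3, minus strand of chr17:80147119-80147148: cgtctgttctcggcagcggcACAGCgaggt
EIF5B, plus strand of chr2:99337369-99337398: cgcttgcgcactgagaactcACACCatatg
EIF3D, EIF3F, EIF3M and EIF4B start on C and pyrimidines, and their log2 fold changes were 0.12, 0.12, 0.16 and 0.11, with edgeR adjusted p-values from 0.0629 to 0.11. The other tested members with such a start had log2 fold changes of 0.06 (EIF2A), -0.03 (EIF2D), 0.04 (EIF2S3), 0.02 (EIF3K) and 0.02 (EIF4A2).

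In the 250 bases before the start, the E-box CACGTG, the same on both strands, was found in 12 of 47 members (25.5%) against 7.73% of all genes with a region. They were EIF1B, EIF2AK2, EIF2B3, EIF3F, EIF3K, EIF4A3, EIF4B, EIF4E, EIF4EBP3, EIF4G1, EIF4H and EIF5A2. Of the 11 tested among them, EIF4A3 and EIF4G1 rose (18.2%, next to 21.4% of the tested members with a start region). The E-boxes of these 2 genes are shown in capitals, 121 and 144 bases before the start.
EIF4A3, minus strand of chr17:80147229-80147264: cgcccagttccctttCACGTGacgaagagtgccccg
EIF4G1, plus strand of chr3:184314447-184314482: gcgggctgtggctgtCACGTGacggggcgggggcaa
Searched on both strands, the ETS motif CCGGAAGT occurred in 6 members (12.8% against 4.13%) and the antioxidant element TGACNNNGC, which heme-regulated genes can carry, in 10 members (21.3% against 13.22%). Of the 6 tested members with the ETS motif, EIF5A rose (16.7%). Of the 9 tested members with the antioxidant element, EIF1AX, EIF3J, EIF4G1 and EIF5A rose (44.4%). Among all tested members with a start region the share was 21.4%. These shares rest on few genes, and their differences were not tested. The GATA motif AGATAA, the CRE motif TGACGTCA and the NRF1 motif were found in 0 of 47 members, against 11.12%, 2.03% and 1.28% of all genes. A match describes these letters only.

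The other genes of the pathway were taken from 6 hand-written lists of 71 genes, of which 70 were tested. In these lists 11 genes rose (15.7% against 7.00% of all genes) and 8 fell (11.4% against 7.14%), with a median log2 fold change of 0.067. Of the 14 poly(A)-, cap- and eIF4-associated genes, 6 rose: PABPC4 (0.34) and PABPC1 (0.19), poly(A)-binding proteins, ABCF1 (0.31), a ribosome-associated ATPase, NCBP1 (0.28), a subunit of the nuclear cap-binding complex, LARP1 (0.26), which binds pyrimidine-start mRNAs, and DDX3X (0.17), a helicase. In the same list 3 genes fell, namely PAIP2B (-0.84), which displaces poly(A)-binding protein, MKNK2 (-0.44), a kinase of eIF4E, and NCBP2 (-0.29), the partner of NCBP1. PABPC1 was at 2890 and 2930 CPM untreated and at 3250 and 3390 CPM after hemin, and LARP1 at 611 and 591 CPM untreated and 722 and 719 CPM after hemin. MKNK2 was at 171 and 168 CPM untreated and at 130 and 120 CPM after hemin. In all 3 the groups were apart.

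Of 8 termination and recycling genes, 3 rose: the release factor ETF1 (0.29), the subunit-splitting ATPase ABCE1 (0.18) and the recycling factor DENR (0.21). PELO, a ribosome-rescue factor, had the lowest value, at -0.16 (edgeR adjusted p = 0.386). Among 9 elongation genes 1 fell and none rose. EEF1A2, the tissue-restricted copy of the tRNA carrier, was at 23.0 and 26.2 CPM untreated and at 10.2 and 9.17 CPM after hemin, a log2 fold change of -1.34 (SE 0.13, edgeR adjusted p = 0.000488). The main copy EEF1A1, at 13400 and 14500 CPM untreated and 14100 and 13700 CPM after hemin, had overlapping groups (-0.01), and EEFSEC, the selenocysteine factor, had the highest value of the list, at 0.23 (edgeR adjusted p = 0.317). Among 8 hypusine and diphthamide genes DHPS fell (-0.24, SE 0.058, edgeR adjusted p = 0.0254). DHPS takes part in making the modified lysine of EIF5A, and its fitted value went down while that of EIF5A went up. DOHH, also a hypusine gene, had a log2 fold change of 0.22 (SE 0.15, edgeR adjusted p = 0.38). A link between these values was not tested. DPH6, a diphthamide gene, had the highest value of that list, at 0.32 (edgeR adjusted p = 0.288).

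Among 14 genes of the eIF2 phosphatases and the integrated stress response, DELE1, which relays mitochondrial stress to HRI, rose (0.24, edgeR adjusted p = 0.0281), and the stress targets DDIT3 (-0.39, 0.0247) and TRIB3 (-0.16, 0.0419) fell. DDIT3 was at 29.0 and 29.6 CPM untreated and at 23.2 and 21.6 CPM after hemin. ATF4, the transcription factor upstream of both, was at 405 and 417 CPM untreated and at 435 and 440 CPM after hemin, a log2 fold change of 0.09 (SE 0.040, edgeR adjusted p = 0.162). PPP1R15A, the inducible phosphatase subunit, was at 0.01, and NCK1, an adaptor, had the highest value, at 0.27 (edgeR adjusted p = 0.174). Of 18 mTORC1 genes, 17 were tested (DEPTOR was not). RPTOR, a core subunit, rose (0.22, edgeR adjusted p = 0.0355), and DDIT4, an inhibitor of mTORC1 signalling, fell. DDIT4 was at 340 and 361 CPM untreated and at 232 and 228 CPM after hemin, with a log2 fold change of -0.61 (SE 0.046, edgeR adjusted p = 0.000142), and it was called by every one of the 13 alternatives. RRAGC had the highest value of the list, at 0.36 (edgeR adjusted p = 0.0517).

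Leaving out a single library ended the calls of 11 of these 19 partner genes. Untreated replicate 1 and untreated replicate 2 each mattered for ABCE1, DENR, PAIP2B, DDX3X, NCBP2, DHPS, DDIT3, TRIB3, DELE1 and RPTOR, and hemin replicate 2 for the same genes except NCBP2. Hemin replicate 1 mattered for DENR, NCBP2, TRIB3 and DELE1, and untreated replicate 2 also for NCBP1. With untreated replicate 1, untreated replicate 2 or hemin replicate 2 left out, the risers numbered 6, 5 and 6, and the count of genes that fell was 4, 3 and 4. The highest edgeR adjusted p over the libraries left out was 0.187 for ABCE1, 0.131 for DENR, 0.0852 for PAIP2B, 0.105 for DDX3X, 0.0623 for NCBP1, 0.103 for NCBP2 and for DELE1, 0.119 for DHPS, 0.11 for DDIT3, 0.179 for TRIB3 and 0.195 for RPTOR. EEF1A2, ETF1, PABPC1, PABPC4, LARP1, MKNK2, ABCF1 and DDIT4 kept their calls. DESeq2 ended the calls of ABCE1 (adjusted p = 0.076), DENR (0.176), PAIP2B (0.125), NCBP2 (0.0964), DHPS (0.135), DDIT3 (0.183), TRIB3 (0.147), DELE1 (0.128) and RPTOR (0.126).

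**Figure D5:**
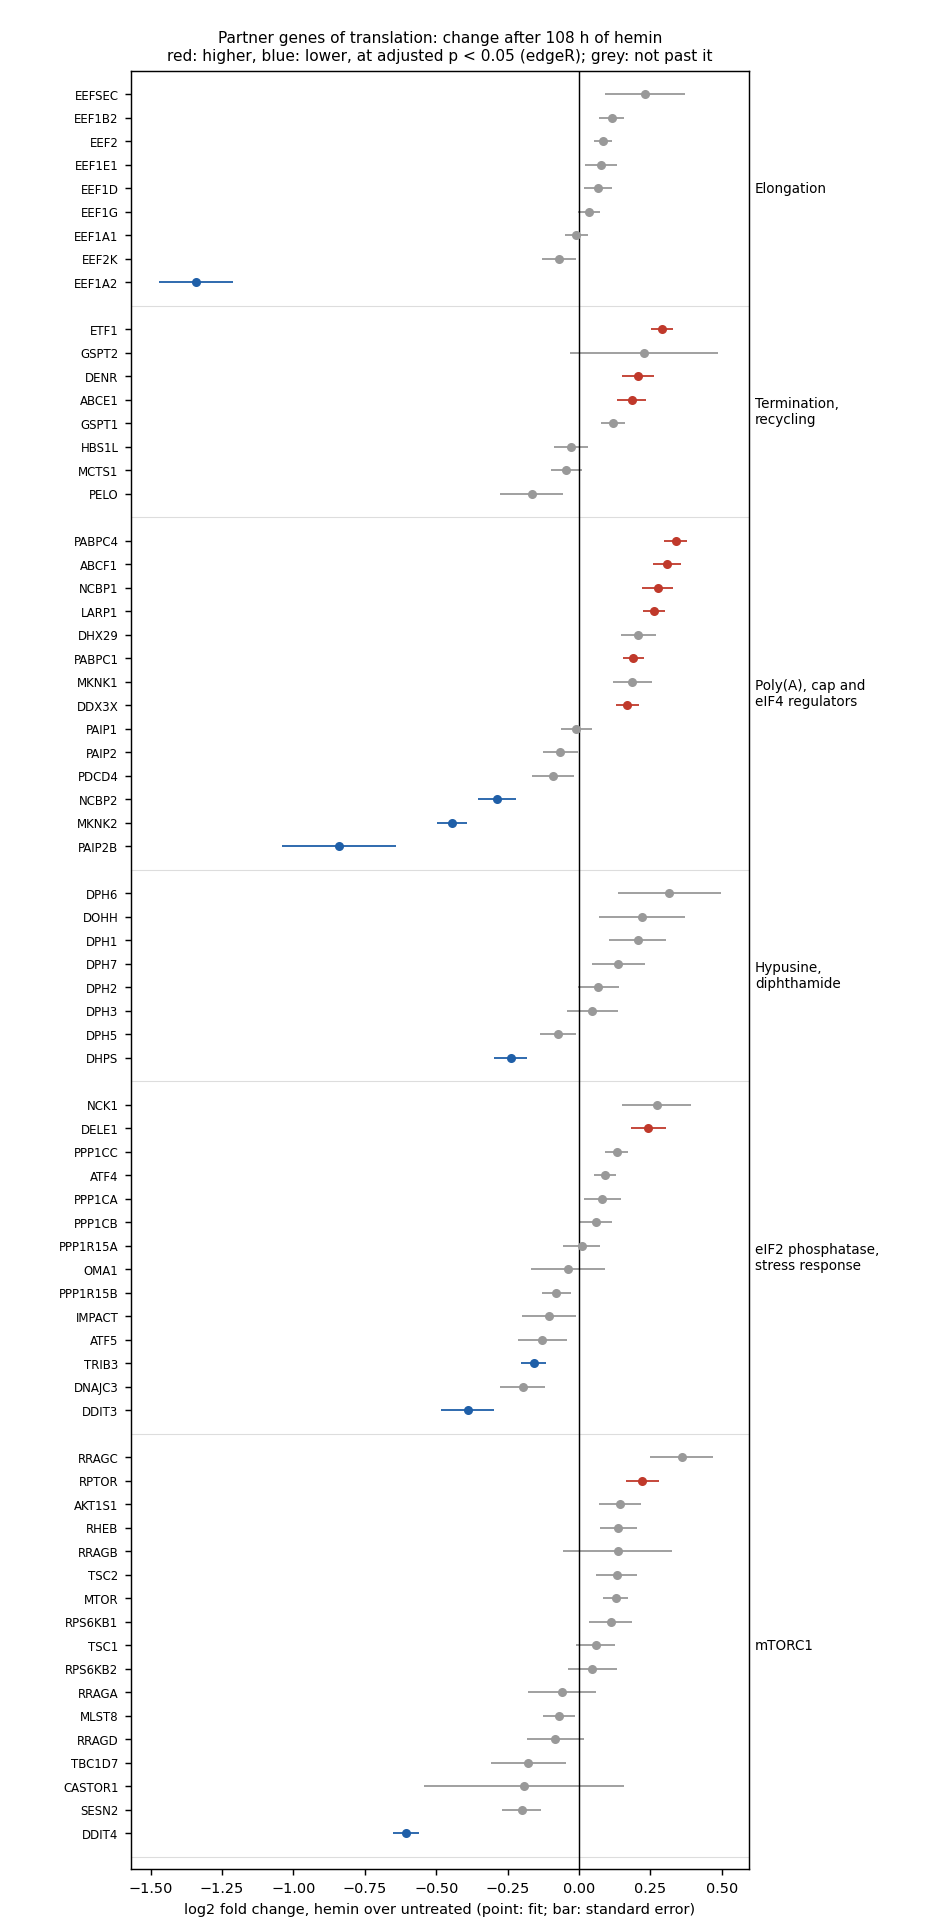
Log2 fold change (x axis, hemin over untreated; point, fitted value; bar, standard error) of the 70 tested partner genes in 6 lists. Red points rose and blue points fell at an adjusted p below 0.05 by edgeR; 6 of the 11 red points are in the poly(A), cap and eIF4 list, and the lowest points are EEF1A2 (-1.34), PAIP2B (-0.84) and DDIT4 (-0.61).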

How the data were processed

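RNA of 2 untreated and 2 hemin-treated K562 libraries was sequenced with 50-base reads. The authors trimmed reads with Trimmomatic 0.39 and quantified them with RSEM 1.3.1 and STAR 2.7.5c on Ensembl 106. In the deposited expected counts, which are estimated reads per gene, a read that fits several genes is divided between them. The deposited TPM are scaled by effective length, and the deposited posterior SD of the count, a non-negative signal, describes the division of shared reads. The deposited FPKM were not used here.

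Expected counts were rounded, filtered with filterByExpr (leaving 14458 of 61498 genes) and normalised with TMM factors, and edgeR 4.0.16 was applied (quasi-likelihood, condition only, Benjamini-Hochberg adjustment, threshold 0.05) in R 4.3.3. The standard error is the size of the log2 fold change divided by the square root of F. Alternatives used DESeq2 1.42.0, limma 3.58.1 and other settings. Coordinates are from GENCODE 44 (Ensembl 110), which matched all 56 members, and exact 95% intervals from scipy 1.17.1. Scripts were tested on simulated counts drawn with a single dispersion for all genes. Of 100 genes changed 1.3-fold 55 were recovered, and of 100 changed 2-fold 97 were. A factor that did not pass may therefore still have changed by 1.3-fold. The simulation sets no upper limit on a missed change, and its changed genes were not drawn from those with low counts. EIF4E3, for example, did not pass with a log2 fold change of -0.81 (SE 0.31). Library totals were 7455447 to 8241534.

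Values in every library are given for called members (at most the 8 largest changes in each direction), the eIF2α kinases, the eIF4E-binding proteins, EIF3C, EIF3CL, EIF5A, EIF5A2, EIF5AL1 and the members highest and lowest in TPM. Other genes shown by library were chosen after their values were seen. Partner genes past the threshold and the extremes of each list are named. The members and lists were chosen with earlier results of these data known.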

Additional observations from a re-analysis of the deposited data

How the results depend on the processing

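The 51 tested factors gave 662 values under 13 alternatives, of which 556 kept their direction and side of the threshold, 42 lost a call, 15 gained one and 49 changed sign. No called factor changed sign. With 2 libraries per condition, leaving out a library leaves a single one that is assumed to vary like the others. Counts of factors called (higher and lower) were 11 and 1, and 6 to 10 and 0 to 1 with a library left out, the lowest without untreated replicate 1. These counts take in EIF3CL, whose value is not read as a change. Leaving it out gives 10 and 0 without hemin replicate 1 (where EIF3CL was the 1 lower call), 9 and 1 without hemin replicate 2, 15 and 1 without a count filter and 9 and 1 with the replicate block. They were 0 and 0 by limma on both TPM scales, 9 and 1 with library size only, 12 and 1 by DESeq2, 16 and 1 without a count filter, 14 and 1 with a strict filter (20 counts in both libraries of a condition) and 13 and 1 with posterior mean counts. The partner genes (11 higher and 8 lower) became 6 higher with library size only, 7 higher and 3 lower by DESeq2, 0 higher and 1 lower by limma on either scale, and 5 to 11 higher and 3 to 6 lower with a library left out. EIF5A summed with EIF5AL1 was 0.231 on both TPM scales (limma adjusted p = 0.0956 and 0.104). With the replicate number as a block, although same-numbered libraries did not deviate together (correlation 0.00243), 10 factors were higher and 1 lower (EIF3G and EIF4G2 lost, EIF3CL gained), and over all genes 855 and 886 against 1012 and 1033. Library size only gave 729 and 1358 over all genes, so 34.9% of calls were higher against 49.5%. Limma on log2(TPM + 1) gave 14 and 33, and on log2(TPM + 0.1) 15 and 34. Other all-gene counts beyond 1.5 times were 597 and 483 by DESeq2, 469 and 512 without untreated replicate 1, and 537 and 532 without untreated replicate 2. No scaling moved the median of all genes by more than 0.1.

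The values that changed sign belonged to uncalled genes and, EIF3CL apart, were at most 0.377 in size. EIF1 was 0.002 with RLE factors, 0.007 by DESeq2 and 0.009 without a count filter. With library size only, EIF2B5 was -0.029, EIF3I -0.012, EIF3K -0.023, EIF3L -0.007, EIF4A2 -0.015 and EIF4H -0.001. On log2(TPM + 1) and log2(TPM + 0.1), EIF2AK3 was 0.081 and 0.085, EIF4A2 -0.118 and -0.119 and EIF5A2 0.336 and 0.377, and on both EIF2B3 was 0.007, EIF2S3 -0.051, EIF3E 0.006, EIF3F -0.024, EIF3I -0.006, EIF4H -0.042 and PELO 0.027. With a library left out, EIF1 ranged from -0.044 to 0.041, EIF1B from -0.152 to 0.021, EIF2AK2 from -0.083 to 0.037, EIF2AK3 from -0.099 to 0.023, EIF2B1 from -0.022 to 0.114, EIF2B2 from -0.024 to 0.150, EIF2B3 from -0.079 to 0.005, EIF2B5 from -0.025 to 0.049, EIF2D from -0.068 to 0.009, EIF2S2 from -0.091 to 0.022, EIF3CL from -7.365 to 9.068, EIF3E from -0.061 to 0.033, EIF3K from -0.068 to 0.104, EIF4EBP1 from -0.099 to 0.018 and EIF4G3 from -0.064 to 0.010. The causes were not tested.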
